A study of Homo sapiens with 9 samples.

Results

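The genes described here are 10 genes of prostaglandin synthesis, reception and breakdown in human lung fibroblasts. They were chosen by name, with earlier results of these data known. They cover arachidonate release (PLA2G4A), the cyclooxygenases (PTGS1, PTGS2) and the enzymes that follow them (PTGES, PTGDS, PTGIS). The rest are 3 receptors (PTGER2, PTGER4, PTGFR) and a breakdown enzyme (HPGD). Each symbol had 1 Ensembl gene ID, so the 10 genes are 10 of the 64253 gene IDs that were counted. A filter on low counts kept 16561 of those IDs for testing and 9 of the 10 genes, all but HPGD. RNA was sequenced from 9 libraries of IMR90 cells, a fetal lung fibroblast line with a finite life span, with 3 libraries (a, b and c) in each of 3 groups.

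All 3 groups were grown in 2% O2, used at population doubling 30, infected with a lentivirus and 24 hours later with another, and selected with puromycin at 3 ug/mL for 7 days. The control group carried a pLKO.1 vector, described as empty in the sample labels and as a GFP vector in the treatment protocol. The shRRM2 group received a hairpin RNA that targets RRM2, which encodes a subunit of the enzyme that makes deoxyribonucleotides, and then the vector, and its label is Senescence. The shRRM2/shp16 group received the same RRM2 hairpin and then a hairpin to p16, a brake on the cell cycle that CDKN2A encodes, and its label is Senescence-bypass. Each target had 1 hairpin, and no group had the p16 hairpin alone. Nothing in the labels says that the libraries of a group came from separate cultures, so the p-values measure the spread between these libraries, which may be technical.

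Prostaglandins are lipid signals made from arachidonate. Cytosolic phospholipase A2 frees arachidonate from membranes, a cyclooxygenase turns it into prostaglandin H2, and terminal synthases turn that into prostaglandin E2, D2, I2 or F2 alpha or into thromboxane. These act on receptors of nearby cells and are inactivated by uptake and oxidation. In lung fibroblasts prostaglandin E2 is known for restraining growth and collagen production through the receptors EP2 and EP4, which raise cyclic AMP, and PTGS2 is known as a gene that inflammatory cytokines switch on.

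The promoters of the 4 genes with the largest fitted changes between shRRM2/shp16 and shRRM2 are printed here, since the levels of PTGS2, PTGES, PLA2G4A and PTGDS carry most of what follows. Each run is 240 bases of RefSeq sequence (GRCh38.p14), 5′ to 3′ on the gene's own strand, from 250 to 11 bases upstream of the RefSeq start site. Capitals mark matches on either strand to the TATA box TATAAA, to the core of cyclic AMP response elements TGACG, to the C/EBP motif TTNCGNAA, to the kappa B motif (GGG and then, after any 2 bases, T, any 2 bases and CC) or to the EGR1 motif GCGTGGGCG.
PTGS2 (chr1:186680434-186680673, minus strand): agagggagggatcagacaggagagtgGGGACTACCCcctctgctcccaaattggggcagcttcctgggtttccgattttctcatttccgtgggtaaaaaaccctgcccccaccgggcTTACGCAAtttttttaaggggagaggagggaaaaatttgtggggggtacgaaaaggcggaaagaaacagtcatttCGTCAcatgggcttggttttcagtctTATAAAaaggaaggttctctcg
PTGES (chr9:129753053-129753292, minus strand): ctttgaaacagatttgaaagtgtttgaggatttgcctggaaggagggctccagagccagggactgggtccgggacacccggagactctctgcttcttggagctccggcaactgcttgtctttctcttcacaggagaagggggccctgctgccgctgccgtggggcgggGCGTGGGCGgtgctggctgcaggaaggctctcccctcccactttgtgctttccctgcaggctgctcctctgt
PLA2G4A (chr1:186828699-186828938, plus strand): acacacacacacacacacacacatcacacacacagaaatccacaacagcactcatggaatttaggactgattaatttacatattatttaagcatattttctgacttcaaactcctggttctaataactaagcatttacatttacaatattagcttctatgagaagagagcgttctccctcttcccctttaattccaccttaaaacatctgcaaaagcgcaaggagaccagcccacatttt
PTGDS (chr9:136977254-136977493, plus strand): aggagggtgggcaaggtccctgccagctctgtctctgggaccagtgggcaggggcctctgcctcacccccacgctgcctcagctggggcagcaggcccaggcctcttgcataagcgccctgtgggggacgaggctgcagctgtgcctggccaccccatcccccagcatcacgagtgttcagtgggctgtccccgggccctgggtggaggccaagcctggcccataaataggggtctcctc

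The PTGS2 run held 4 of the 5 motifs, none overlapping another. TATAAA stood 32 to 27 bases upstream of the start, the response element core at 58 to 54 on the opposite strand, TTACGCAA at 133 to 126 and the kappa B match GGGACTACCC at 224 to 215. The PTGES run held GCGTGGGCG at 82 to 74 bases upstream. No match was found in the PLA2G4A and PTGDS windows, and the PTGDS start used by RefSeq lies inside the gene span that GENCODE gives. Among 35116 RefSeq promoters cut to the same window, TATAAA occurred in 10.6%, TGACG in 20.5%, TTNCGNAA in 2.08%, the kappa B motif in 18.9% and GCGTGGGCG in 0.678%. A match describes letters only, and the motifs were picked with these genes in view. Promoters were found for 9 of the 10 genes. Of those not printed, PTGER2 held TGACG at 137 to 133 bases upstream and PTGER4 held the kappa B match GGGGCTTCCC at 244 to 235. PTGS1 held TATAAA on the opposite strand at 208 to 203, and an alternative HPGD start held TGACG on the opposite strand at 77 to 73. The PTGER4 and HPGD windows overlap annotated exon and UTR of the same genes.

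Gene-assigned counts per library ran from 15770895 to 24873291, and libraries of the same group differed beyond sampling noise in all 9 pairs (chi-square per degree of freedom 1.44 to 2.95). RRM2 had a log2 fold change of -2.96 in shRRM2 against control and of -1.45 in shRRM2/shp16 against control. RRM2 was thus 2.85-fold higher in shRRM2/shp16 than in shRRM2 (log2 fold change 1.51, edgeR adjusted p 7.9e-34), so these groups differ in the level of RRM2 as well as in the p16 hairpin, and the effects of the 2 cannot be told apart. CDKN2A had log2 fold changes of 0.11 (edgeR adjusted p 0.431) in shRRM2 and -0.49 (adjusted p 7.3e-04) in shRRM2/shp16, both against control. In shRRM2/shp16 against shRRM2 it was -0.60 (adjusted p 7.0e-05), which left 65.8% of the shRRM2 mean. Reads were counted per gene, so transcripts of CDKN2A are not told apart. All 10 fibroblast markers were counted. Their summed levels were 27162 to 28019 CPM in control, 26565 to 27351 in shRRM2 and 22902 to 23494 in shRRM2/shp16. CPM is the count relative to the library's scaled total, as usual. COL1A1, COL1A2 and VIM made up most of the sum, and single markers went opposite ways. From shRRM2 to shRRM2/shp16, PDGFRA went from 187 to 709 CPM and COL3A1 from 1657 to 3631. VIM went from 3525 to 2136 CPM there and THY1 from 287 to 161. Epithelial markers summed to at most 2.69 CPM with KRT5 and SFTPC at 0 in every library, and leukocyte markers to at most 4.07 CPM with CD3E and MS4A1 at 0 in every library. Endothelial markers summed to 64.0 to 68.4 CPM in control, 66.9 to 71.7 in shRRM2 and 111 to 120 in shRRM2/shp16, nearly all of it TEK, with CDH5 at 0 in the last group. Smooth muscle markers, mostly CNN1, went from 130 to 137 CPM in control and 108 to 114 in shRRM2 to 45.6 to 51.7 in shRRM2/shp16. Mast cell markers were KIT reads almost alone, at 2.14 to 8.44 CPM, with TPSAB1 at 0. Reads assigned to no counted feature made up 17.6% to 18.9% in control, 27.7% to 28.8% in shRRM2 and 23.5% to 24.4% in shRRM2/shp16. Such reads may lie in introns as well as between genes. The part of these shifts in the results below was not tested, and in bulk RNA fewer cells of a type and less RNA per cell cannot be told apart.

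The 9 tested genes moved in different directions when RRM2 was depleted, and mostly upward from shRRM2 to shRRM2/shp16. In shRRM2 against control, 8 of 9 passed an adjusted p of 0.05, of which 2 (PTGS2 and PTGER4) were higher and 6 were lower. The background was high, since 60.9% of all tested genes passed in that comparison, 29.0% higher and 31.8% lower. Between shRRM2/shp16 and shRRM2, 7 of 9 passed and all 7 were higher, beside 61.1% of all tested genes, 31.9% higher and 29.1% lower. In shRRM2/shp16 against control, all 9 passed, 6 higher and 3 (PTGDS, PTGIS and PTGER2) lower, beside 62.4% of all tested genes, 30.0% higher and 32.4% lower. PTGDS, whose fall in shRRM2 was known when the genes were put together, is 1 of the 6 lower genes, 1 of the 7 higher ones and 1 of the 2-fold changes given next for both comparisons with shRRM2. Passing the threshold was common over the whole genome in these data. At least a 2-fold change that passed was seen for 3, 6 and 3 of the 9 genes in the 3 comparisons in that order, beside 10.1%, 11.8% and 12.6% of all tested genes. Library ranges did not overlap for 8, 7 and 9 of the 9 genes, beside 63.6%, 64.7% and 66.2% of all tested genes. The median log2 fold change of the 9 genes was -0.32, 1.31 and 0.82, beside medians over all tested genes of 0.00235, 0.0115 and 0.0147.

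**Figure D1:**
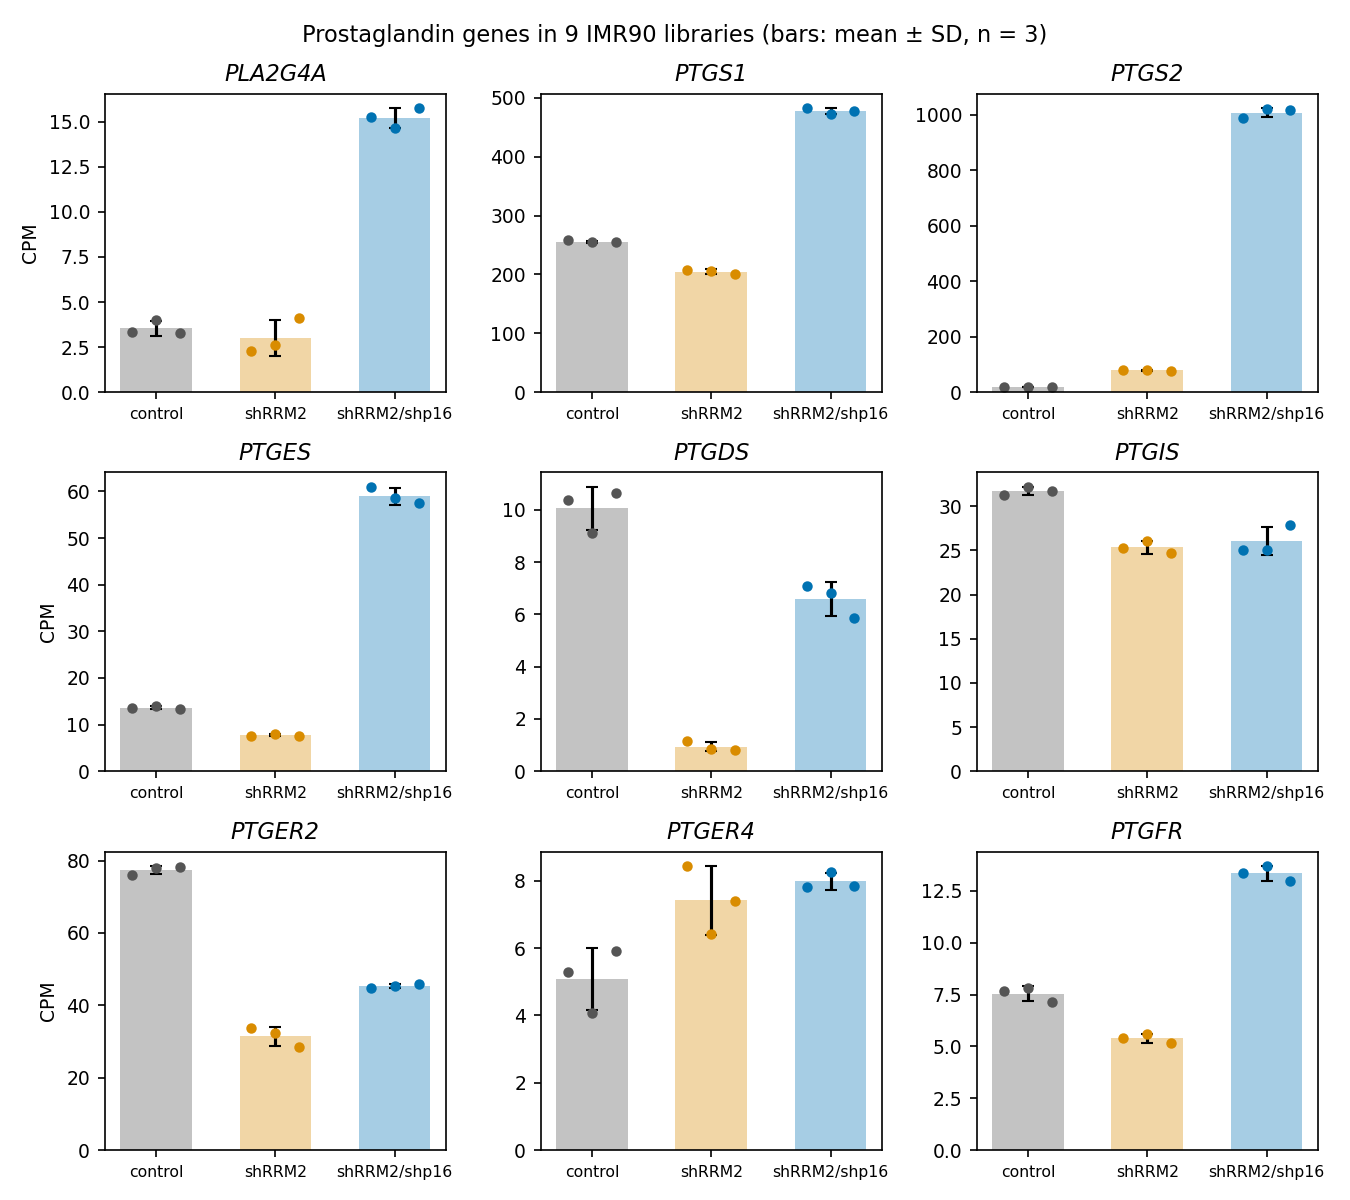
Normalised read counts (CPM, linear axes starting at 0, a separate scale for each gene) of the 9 tested genes in control, shRRM2 and shRRM2/shp16 libraries, with points for libraries and bars for the mean ± SD (n = 3). PTGS2 steps up from 19.2 to 79.1 to 1008 CPM, while PTGDS drops to 0.937 CPM in shRRM2 and stands at 6.59 CPM in shRRM2/shp16.

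Arachidonate release was followed through PLA2G4A (ENSG00000116711, chr1:186828953-186988981, plus strand), which encodes cytosolic phospholipase A2 alpha. It was counted at 3.35, 4.02 and 3.28 CPM in control replicates a, b and c, at 2.29, 2.60 and 4.13 CPM in shRRM2 and at 15.3, 14.6 and 15.7 CPM in shRRM2/shp16. The control and shRRM2 libraries overlapped, with shRRM2 replicate c above all 3 controls, and the shRRM2/shp16 libraries stood far above both. Its log2 fold change in shRRM2/shp16 against shRRM2 was 2.33 ± 0.13 (SE), a 5.02-fold rise with an edgeR adjusted p of 6.0e-20, and against control it was 2.10 ± 0.12 (adjusted p 1.4e-19). Between shRRM2 and control the log2 fold change was -0.23 ± 0.17 (adjusted p 0.258). That last result turned on shRRM2 replicate c, without which the value was -0.52 with an adjusted p of 0.0141. It also passed with limma on RPKM, a fit that lacks the same library, at -0.25 (adjusted p 0.0163) or -0.45 (adjusted p 0.009) by pseudocount.

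PTGS1, the constitutive cyclooxygenase (ENSG00000095303, chr9:122370530-122395703, plus strand), was the most abundant of the 10 transcripts in control and shRRM2. It stood at 258, 254 and 255 CPM in control, at 208, 206 and 200 CPM in shRRM2 and at 483, 472 and 477 CPM in shRRM2/shp16. Groups did not overlap, and libraries of a group lay within a few percent of each other. PTGS1 fell in shRRM2 by 0.32 ± 0.03 on the log2 scale (edgeR adjusted p 6.6e-13) and rose from there in shRRM2/shp16 by 1.22 ± 0.03 (adjusted p 6.3e-34), a 2.33-fold difference. It ended 0.90 ± 0.03 above control (adjusted p 1.6e-29). A short sense-intronic transcript inside PTGS1, AL162424.1, was counted apart at 7 to 47 reads. Its log2 fold changes were -0.81, 2.05 and 1.25 in the 3 comparisons (edgeR adjusted p 0.0371, 3.5e-08 and 2.0e-05). It lies on the same strand as PTGS1, so its reads cannot be told apart from those of unspliced PTGS1 RNA.

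PTGS2, the inducible cyclooxygenase known as COX-2 (ENSG00000073756, chr1:186671791-186680427, minus strand), showed the largest rise of the 9 genes in each of the 3 comparisons. It was at 19.9, 18.3 and 19.5 CPM in control, at 80.3, 79.8 and 77.2 CPM in shRRM2 and at 988, 1019 and 1017 CPM in shRRM2/shp16. The 3 groups were far apart, with no overlap. The log2 fold change was 2.04 ± 0.05 in shRRM2 against control (4.10-fold, edgeR adjusted p 7.0e-34) and 3.67 ± 0.03 in shRRM2/shp16 against shRRM2 (12.7-fold, adjusted p 8.0e-50). Against control the shRRM2/shp16 cells held 52.2-fold more PTGS2 transcript (log2 fold change 5.71 ± 0.04, adjusted p 2.6e-54). PTGS2 was thus higher in the group labelled Senescence and higher again in the group labelled Senescence-bypass.

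PACERR, a long noncoding RNA on the opposite strand that is known to act on PTGS2 expression, starts in the promoter stretch printed above, 195 bases from the PTGS2 gene. It had 9, 1 and 3 counts in control, 7, 0 and 6 in shRRM2 and 24, 39 and 25 in shRRM2/shp16. Those counts are few, yet every shRRM2/shp16 library lay above the other 6. PACERR rose in shRRM2/shp16 against shRRM2 by 2.53 ± 0.44 on the log2 scale (edgeR adjusted p 2.6e-06), and between shRRM2 and control the value was 0.21 ± 0.65 (adjusted p 0.792). The strand setting of the counting is not given in the sources used here, so reads of the 2 genes may be mixed where they meet. PLA2G4A lies 148525 bases from PTGS2 on the same chromosome, with 1 annotated gene (PACERR) and 0 protein-coding genes between them.

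Cyclooxygenase transcripts can be compared per length, as RPKM (CPM divided by the gene's length in kilobases). Of the summed PTGS1 and PTGS2 RPKM, PTGS2 made up 7.84%, 7.32% and 7.74% in the control libraries, 29.8% in each shRRM2 library and 69.2%, 70.3% and 70.1% in the shRRM2/shp16 libraries. The summed level was 47.8 ± 0.439 RPKM in control (SD, n = 3), 50.4 ± 1.03 in shRRM2 and 274 ± 2.46 in shRRM2/shp16. All 3 shRRM2 sums lay above the 3 control sums by a small margin, with PTGS1 lower and PTGS2 higher, and in shRRM2/shp16 both transcripts were above both other groups. These shares describe transcripts, not enzyme.

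**Figure D2:**
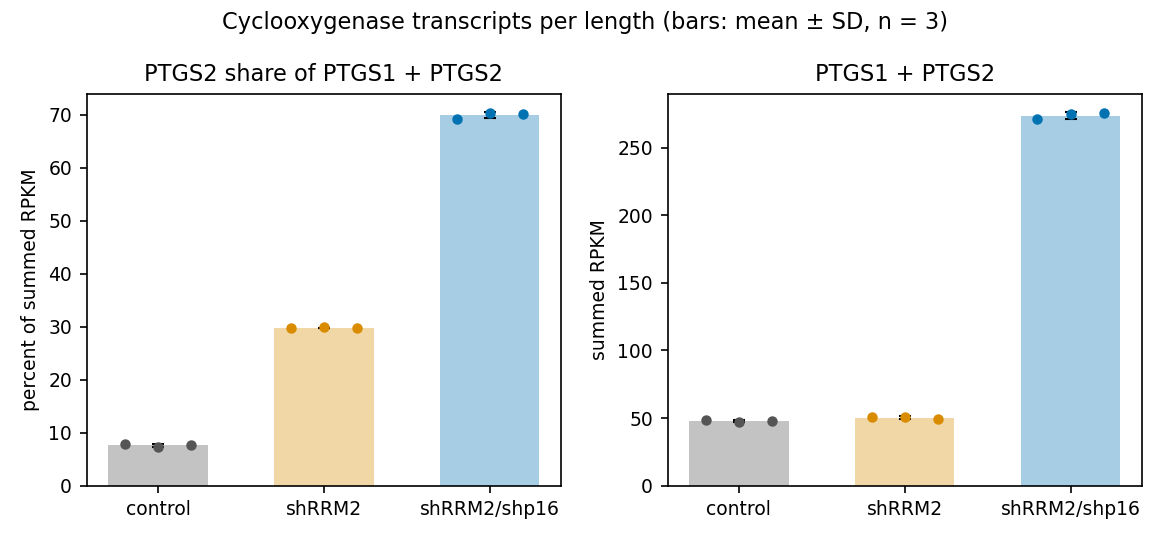
Left, PTGS2 as percent of the summed PTGS1 and PTGS2 RPKM, and right, that sum in RPKM, in each library (points) with the group mean ± SD (bars, n = 3, axes from 0). The share goes from 7.63% in control to 29.8% in shRRM2 and 69.9% in shRRM2/shp16, while the sum is 47.8, 50.4 and 274 RPKM.

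Of the terminal synthases, PTGES (ENSG00000148344, chr9:129738331-129753047, minus strand) encodes the microsomal prostaglandin E synthase that is known for being induced together with PTGS2. Here it was at 13.6, 14.0 and 13.4 CPM in control, at 7.62, 8.02 and 7.63 CPM in shRRM2 and at 61.0, 58.6 and 57.5 CPM in shRRM2/shp16. Unlike PTGS2, it was lowest in shRRM2, in every library. PTGES fell in shRRM2 by 0.81 ± 0.09 on the log2 scale (edgeR adjusted p 7.3e-11). It then rose 7.60-fold in shRRM2/shp16 against shRRM2 (log2 fold change 2.93 ± 0.07, adjusted p 7.7e-34) and stood 2.11 ± 0.06 above control (adjusted p 6.3e-31). PTGS2 and PTGES thus went opposite ways between control and shRRM2 and the same way between shRRM2 and shRRM2/shp16.

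PTGDS, the lipocalin-type prostaglandin D synthase (ENSG00000107317, chr9:136975092-136981742, plus strand), had the largest fall of the 9 genes in shRRM2. It was at 10.4, 9.11 and 10.7 CPM in control, at 1.14, 0.865 and 0.803 CPM in shRRM2 and at 7.08, 6.82 and 5.86 CPM in shRRM2/shp16. The shRRM2 values rest on 18, 15 and 14 reads, and no groups overlapped. PTGDS was already known to be among the lowest genes of shRRM2 when these genes were put together, so its change there is a description without a test, as is the return from it. The fitted log2 fold change was -3.43 ± 0.17 in shRRM2 against control, which left 9.32% of the control mean, and 2.82 ± 0.18 in shRRM2/shp16 against shRRM2, 7.04-fold. PTGDS in shRRM2/shp16 remained below control by a log2 fold change of -0.61 ± 0.11 (edgeR adjusted p 3.9e-06), at 65.5% of the control mean. A pseudocount of 1 on RPKM shrank these values to -1.84, 1.45 and -0.39. PTGDS shares its strand and part of its span with AL807752.7, a coding gene that was not among the counted IDs, while the adjacent LCNL1 had 0 to 3 counts per library.

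PTGIS, the prostacyclin synthase (ENSG00000124212, chr20:49503874-49568146, minus strand), had a largest change over the 3 comparisons that was the smallest of the 9 genes. It was at 31.3, 32.2 and 31.8 CPM in control, at 25.3, 26.1 and 24.7 CPM in shRRM2 and at 25.1, 25.1 and 27.8 CPM in shRRM2/shp16. Every library with an RRM2 hairpin lay below the controls, and the 2 hairpin groups overlapped. PTGIS fell in shRRM2 by 0.32 ± 0.06 on the log2 scale (edgeR adjusted p 1.3e-05) and lay below control in shRRM2/shp16 with -0.29 ± 0.06 (adjusted p 4.6e-05). With limma on RPKM that last value was -0.16 or -0.18 by pseudocount. Its difference between shRRM2/shp16 and shRRM2 was 0.04 ± 0.06 (adjusted p 0.632), and -0.0094 without shRRM2/shp16 replicate c.

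Among the receptors, PTGER2, which encodes EP2 (ENSG00000125384, chr14:52314305-52328606, plus strand), was the most abundant per length in every group. It was at 76.0, 77.8 and 78.3 CPM in control, at 33.7, 32.2 and 28.6 CPM in shRRM2 and at 44.8, 45.3 and 45.9 CPM in shRRM2/shp16. All hairpin libraries were below the controls, with shRRM2 lowest. PTGER2 fell in shRRM2 by 1.30 ± 0.05 on the log2 scale (edgeR adjusted p 2.4e-25), which left 40.7% of control. In shRRM2/shp16 it was 0.53 ± 0.05 above shRRM2 (adjusted p 2.1e-11) and still below control, with -0.77 ± 0.05 (adjusted p 8.2e-19).

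PTGER4, which encodes EP4, the other cyclic AMP-raising receptor for prostaglandin E2 (ENSG00000171522, chr5:40679498-40693735, plus strand), went the opposite way to PTGER2 in shRRM2. It was at 5.28, 4.08 and 5.90 CPM in control, at 8.44, 6.40 and 7.40 CPM in shRRM2 and at 7.82, 8.27 and 7.85 CPM in shRRM2/shp16. Controls lay below the other 6 libraries, which overlapped. PTGER4 rose in shRRM2 by 0.54 ± 0.13 on the log2 scale (edgeR adjusted p 3.6e-04) and in shRRM2/shp16 against control by 0.65 ± 0.12 (adjusted p 1.3e-05). Between shRRM2/shp16 and shRRM2 the value was 0.11 ± 0.12 (adjusted p 0.427). With limma and a pseudocount of 1 on RPKM, the rise in shRRM2 was 0.36. PTGER4 overlaps TTC33 on the opposite strand, which passed in none of the 3 comparisons (adjusted p 0.619, 0.281 and 0.0933).

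PTGFR, the receptor for prostaglandin F2 alpha (ENSG00000122420, chr1:78303884-78539749, plus strand), was at 7.67, 7.83 and 7.15 CPM in control, at 5.40, 5.60 and 5.16 CPM in shRRM2 and at 13.4, 13.7 and 13.0 CPM in shRRM2/shp16. The groups did not overlap, and their order was that of PTGS1, PTGES and PLA2G4A by group mean. PTGFR fell in shRRM2 by 0.49 ± 0.11 on the log2 scale (edgeR adjusted p 2.3e-04) and rose in shRRM2/shp16 by 1.31 ± 0.10 over shRRM2 (adjusted p 4.4e-15) and 0.82 ± 0.09 over control (adjusted p 1.7e-10). With a pseudocount of 1 on RPKM, limma gave -0.24 and 0.86 for the comparisons with shRRM2. MGC27382, a noncoding transcript on the same strand that shares part of the PTGFR span, had 4 to 19 counts per library and did not pass in any comparison (adjusted p 0.961, 0.0604 and 0.0575).

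HPGD, the enzyme that oxidises and so inactivates prostaglandins (ENSG00000164120, chr4:174490177-174523154, minus strand), was almost without reads. It had 2 counts in control replicate a, 2 in shRRM2/shp16 replicate c and 0 in the other 7 libraries. In those 7 libraries a count of 0 allows up to 3 counts, or 0.149 to 0.190 CPM, and any difference below that was not detectable at this depth.

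**Figure D3:**
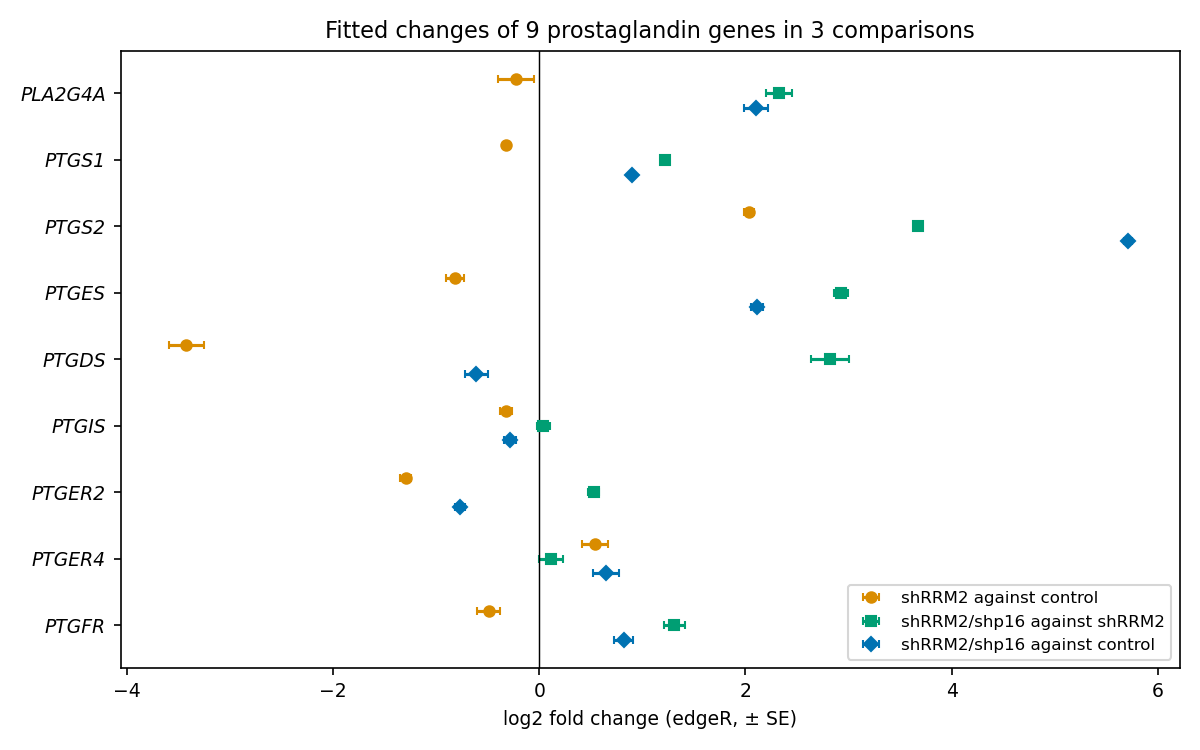
Fitted log2 fold changes (x axis) with their SE (bars) for the 9 tested genes (y axis) in the 3 comparisons, which share groups in pairs. In shRRM2/shp16 against shRRM2 all 9 points lie at or right of 0, from 0.04 for PTGIS to 3.67 for PTGS2, while in shRRM2 against control they run from -3.43 for PTGDS to 2.04 for PTGS2.

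The order of transcript levels per length also differed between the groups. In control, PTGS1 led with 44.2 RPKM, followed by PTGER2 at 31.3, PTGES at 7.20, PTGIS at 5.69, PTGDS at 4.23 and PTGS2 at 3.65. PTGFR was at 1.60 RPKM, above PTGER4 (1.28) and PLA2G4A (1.24), which overlapped each other. In shRRM2 the order was PTGS1 at 35.4 RPKM, PTGS2 at 15.0, PTGER2 at 12.7, PTGIS at 4.54, PTGES at 4.09 and PTGER4 at 1.87, with PTGFR (1.14) and PLA2G4A (1.04) overlapping and PTGDS last of the tested genes at 0.394. In shRRM2/shp16, PTGS2 came first at 191 RPKM, before PTGS1 at 82.5, PTGES at 31.1, PTGER2 at 18.3, PLA2G4A at 5.29 and PTGIS at 4.66. PTGFR (2.83) and PTGDS (2.77) overlapped there, above PTGER4 at 2.01. PTGS2 thus moved from the sixth place to the second and then the first.

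The authors' deposited table compares shRRM2/shp16 with shRRM2 only. The authors' deposited table gives log2 fold changes of 3.73 for PTGS2, 2.95 for PTGES, 2.48 for PTGDS, 2.25 for PLA2G4A, 1.19 for PTGFR, 1.13 for PTGS1 and 0.56 for PTGER2, each with a q-value of 4.4e-04. For PTGIS it lists 0.04 (q-value 0.822) and for PTGER4 -0.22 (q-value 0.755) in the authors' deposited table. The same 7 genes therefore passed there and in the edgeR fit, and PTGER4 had the opposite sign without passing in either. For shRRM2 replicate c the deposited RPKM values do not follow from that library's counts, with PTGDS listed at 2.56 times the value its counts give and the others at 0.768 (PTGER4) to 1.42 (PTGES) times.

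The genes whose fitted changes were nearest to those of PTGS2 were sought among 11376 genes, by the Euclidean distance between pairs of log2 fold changes (shRRM2 against control, and shRRM2/shp16 against shRRM2). They were the cytokine IL1B at a distance of 0.45, complement C3 at 0.61, the cytokines IL6 at 0.65 and IL1A at 0.70, and VNN3 at 0.70. IL1B went from 3.04 CPM in control to 12.4 in shRRM2 and 216 in shRRM2/shp16, and IL6 from 7.55 to 34.4 and 283 CPM. Nearest to PTGDS were COL14A1, a fibril-associated collagen, at 0.50, SHISA3 at 1.19, RRM2 itself at 1.38, SAPCD2 at 1.47 and the growth factor PDGFD at 1.72. COL14A1 went from 60.2 CPM in control to 7.04 in shRRM2 and 64.4 in shRRM2/shp16, so that it came back to the control level or above, which PTGDS did not. IL1A and VNN3 met the minimum level of the search only through shRRM2/shp16, the group where they are high. The search could thus keep such low genes only with a rise there. SHISA3, at 4.96, 1.01 and 5.44 CPM in control, shRRM2 and shRRM2/shp16, met that level only through control and shRRM2/shp16. PTGDS is also high in those groups, so the place of SHISA3 near it carries the same limit. The distances rest on 3 group means and describe likeness in this data set alone.

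The rest of the pathway was followed through 71 other genes in 7 lists, of which 57 were tested. Each count below is to be read beside the same shares over all tested genes as above, 60.9% for shRRM2 against control (29.0% higher, 31.8% lower), 61.1% between shRRM2/shp16 and shRRM2 (31.9% higher, 29.1% lower) and 62.4% between shRRM2/shp16 and control. Of 10 other synthesis enzymes tested in shRRM2 against control, 8 were lower, 1 was higher and 1 did not pass, with a median log2 fold change of -0.68. AKR1B1, an aldose reductase that can make prostaglandin F2 alpha, was the one that rose, from 77.4 to 208 CPM, while the carbonyl reductase CBR3 fell from 12.2 to 4.74 CPM. From shRRM2 to shRRM2/shp16, 6 of these 10 were higher, 1 was lower and 3 did not pass, with a median of 0.57. TBXAS1, the thromboxane synthase, rose there from 6.55 to 35.2 CPM (log2 fold change 2.42 ± 0.08, edgeR adjusted p 4.3e-28). AKR1C1 rose from 2.14 to 27.5 CPM (3.68 ± 0.11, adjusted p 8.9e-30), but the AKR1C genes are near-identical and their reads cannot be assigned with certainty. Against control, 5 of the 10 were higher and 3 lower in shRRM2/shp16. HPGDS, the other prostaglandin D synthase, had 0 counts in all 9 libraries.

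Only 3 of 6 other prostanoid receptors were tested. In shRRM2 against control 1 was higher and 1 lower. Between shRRM2/shp16 and shRRM2, 0 were higher and 2 lower, and against control 1 was higher and 1 lower in shRRM2/shp16. PTGIR, the prostacyclin receptor, was at 1.34 CPM in control, 4.22 in shRRM2 and 1.61 in shRRM2/shp16, so it rose in shRRM2 by 1.65 ± 0.20 on the log2 scale (edgeR adjusted p 2.2e-09) and fell from there by 1.39 ± 0.20 (adjusted p 4.8e-08). TBXA2R, the thromboxane receptor, went from 6.44 to 4.61 and 2.25 CPM across the same groups and its log2 fold change between shRRM2/shp16 and control was -1.51 (adjusted p 1.6e-12). Prostacyclin and thromboxane receptors thus fell in shRRM2/shp16 against shRRM2, where PTGER2 and PTGFR rose. PTGER1 and PTGER4 did not pass there (0.18 and 0.11, edgeR adjusted p 0.504 and 0.427). PTGER1 was higher in shRRM2/shp16 than in control (0.66, adjusted p 0.0138).

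Of 5 genes of transport and breakdown, 3 rose and 1 fell in shRRM2, and 2 rose and 1 fell in shRRM2/shp16 against shRRM2. SLCO2A1, the carrier that takes prostaglandins up, was at 6.02 CPM in control, 16.1 in shRRM2 and 9.38 in shRRM2/shp16. Its rise in shRRM2 was 1.42 ± 0.09 on the log2 scale (edgeR adjusted p 3.5e-17). Against control, 3 of the 5 were higher and 0 lower in shRRM2/shp16.

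Arachidonate release and recycling genes passed about as often as all tested genes, beside 60.9% and 61.1%. Of 12, 6 were higher, 1 lower and 5 not called in shRRM2 against control, and 6 higher, 2 lower and 4 not called between shRRM2/shp16 and shRRM2. ACSL4, which activates arachidonate for return to membranes, went from 144 CPM in control to 188 in shRRM2 and 1159 in shRRM2/shp16 (2.62 ± 0.03 over shRRM2, edgeR adjusted p 9.6e-46). ANXA1, a glucocorticoid-induced protein known as an inhibitor of phospholipase A2, went from 294 and 324 to 122 CPM (-1.41 ± 0.03 against shRRM2, adjusted p 1.8e-34). MGLL, which frees arachidonate from 2-arachidonoylglycerol, was also lower in shRRM2/shp16 than in shRRM2 (-1.09), and the phospholipase PNPLA8 was higher (1.06). In shRRM2/shp16 against control, 7 of the 12 were higher and 2 lower.

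Leukotriene genes were mostly out of reach, with 6 of 12 tested and ALOX5 and LTC4S at 0 counts in every library. Of the 6, 4 were higher and 1 lower in shRRM2 against control, among them the receptors LTB4R (1.48 to 3.45 CPM) and CYSLTR1 (2.81 to 5.85 CPM). From shRRM2 to shRRM2/shp16, 2 were higher and 3 lower, and against control 5 were higher and 0 lower. DESeq2 called 3 of the 6 in shRRM2/shp16 against shRRM2, where edgeR called 5.

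Genes known as targets of CREB, a transcription factor that cyclic AMP activates, were listed because EP2 and EP4 raise cyclic AMP. In shRRM2 against control 3 of 10 were higher, 2 lower and 5 did not pass, with a median of 0.01. All 10 were higher in shRRM2/shp16, both against shRRM2 (median 1.10) and against control (median 0.97), in edgeR with TMM or RLE scaling and in DESeq2. AREG, an epidermal growth factor receptor ligand, went from 21.5 and 22.5 CPM to 435 CPM, and NR4A2, an orphan nuclear receptor, from 80.2 and 103 to 423 CPM. Many other signals act on these genes, and a link to prostaglandins was not tested.

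The last list held 11 known regulators of PTGS2 and PTGES transcript levels. It was not sorted by whether a gene raises or lowers them, so its counts have no single direction to be read. In shRRM2 against control 6 were higher, 3 lower and 2 did not pass, with a median of 0.12. From shRRM2 to shRRM2/shp16, 8 were higher, 2 lower and 1 did not pass, with a median of 1.13, and against control 7 were higher and 3 lower. CEBPB, whose family motif is marked in the PTGS2 run above, went from 84.2 CPM in control and 97.3 in shRRM2 to 321 in shRRM2/shp16 (1.72 ± 0.04 over shRRM2, edgeR adjusted p 4.4e-36). RELB, a kappa B-binding factor, went from 8.12 and 11.7 to 35.2 CPM (1.58 ± 0.08, adjusted p 2.5e-22). EGR1, ELAVL1, ZFP36 and RELA, named here after their values were seen, rose little or not at all from shRRM2 to shRRM2/shp16. EGR1, whose motif is marked in the PTGES run, was at 93.8 CPM in control, 58.7 in shRRM2 and 66.0 in shRRM2/shp16. It was lower than control in both (-0.67 and -0.51). From shRRM2 to shRRM2/shp16 it rose slightly, by 0.17 ± 0.05 (edgeR adjusted p 0.0029). ELAVL1, an RNA-binding protein that stabilises PTGS2 transcripts, went from 129 to 93.8 and 75.6 CPM and fell in all 3 comparisons. ZFP36, also on the list, went from 47.0 to 39.8 and 34.3 CPM and fell in all 3 as well. RELA, another kappa B factor, was at 116, 113 and 114 CPM and passed in none. NFKB1, NFKB2 and CEBPD did rise over shRRM2 in shRRM2/shp16 (0.79, 1.13 and 1.13). IL1A, an inducer of PTGS2, went from 0.393 and 1.02 to 11.3 CPM. IL1A and IL1B are also among the 5 genes nearest to PTGS2 above, so the list and that search share 2 genes. Binding and activity of these regulators were not measured, and a link from any of them to PTGS2 or PTGES was not tested.

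**Figure D4:**
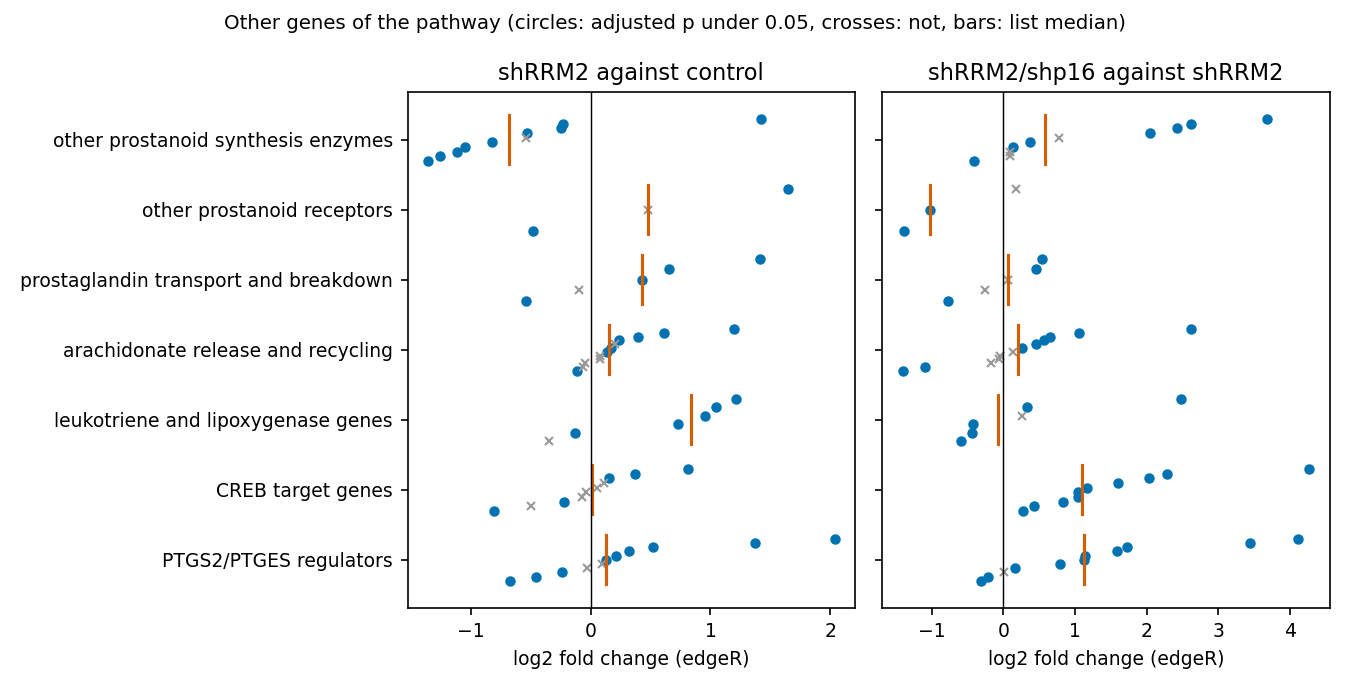
Fitted log2 fold changes (x axes) of the tested genes of 7 other lists (rows) in shRRM2 against control (left) and shRRM2/shp16 against shRRM2 (right), with circles for an adjusted p under 0.05, crosses for the rest and upright bars for list medians. The synthesis enzymes lie mostly left of 0 on the left (median -0.68), and all 10 CREB target genes lie right of 0 on the right (median 1.10).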

How the data were processed

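RNA of 9 IMR90 libraries was measured after ribosomal RNA removal with a stranded kit, per the labels' protocols. The authors deposited raw read counts per Ensembl gene, 1 file a library, with closing tally lines in HTSeq's form. Those tally lines entered neither totals nor tests (reads assigned to no counted feature 17.6% to 28.8%, ambiguous reads 3.74% to 6.02%). Strand and counting settings are not given in the sources used here, so reads over overlapping or antisense genes are uncertain. The submitters' processing notes name TopHat2 2.0.9, Cufflinks 2.0.2, Cuffdiff and GRCh38 without roles. The authors' deposited table also holds log2 values per library, which were found to be log2(RPKM/1000 + 1), and log2 fold changes between shRRM2/shp16 and shRRM2 with a p-value and q-value. Of its 9 log2 columns, 8 equal the counts per gene length within 1%, and that of shRRM2 replicate c does not. RPKM was computed from the counts with the lengths those columns imply. There were 0 columns that matched no sample.

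Counts were fitted with edgeR 4.0.16 (R 4.3.3) by quasi-likelihood over all 9 libraries, with a coefficient per group, TMM scaling and filterByExpr, which kept 16561 genes with 99.8% of counts. The fit had 6 residual degrees of freedom and a common biological coefficient of variation of 0.027. Tests were two-sided, adjusted by Benjamini-Hochberg over all tested genes, with a threshold of 0.05. SE is the log2 fold change divided by the root of F. CPM and RPKM used TMM-scaled library sizes. Floors of 3 counts cover counting error only. The 10 genes and all lists and motifs were chosen with earlier results of these data known, so their p-values set a difference against the spread between libraries and are no independent evidence. Symbols came from the authors' table, with 3 list genes matched by an older symbol and 3 with several IDs kept by most counts, and positions from GENCODE release 29 on GRCh38. Named genes outside the 10 were those of the lists that passed with at least a 2-fold change, up to 4 by size for each list and comparison (some of low level are not printed), RRM2, CDKN2A, genome neighbours, and the 5 nearest to PTGS2 and to PTGDS (mean log2 CPM at least 2). The rest of the regulator list and PTGER1 were named after their values were seen. The fit was also run on simulated counts in which few genes changed, and only in shRRM2. Most tested genes were called in the real data, so that run does not show how the fit behaves there. Alternatives were RLE scaling, DESeq2 1.42.0, no filter, at least 10 counts in every library, only the 6 libraries compared, a replicate block, leaving out each library, and limma 3.58.1 on log2(RPKM + 1) or log2(RPKM + 0.1) for genes with a mean RPKM of at least 1 in the 8 matching columns. The deposited scale itself was not used for limma, since its pseudocount equals 1000 RPKM.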

Additional observations from a re-analysis of the deposited data

How the results depend on the processing

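The number of the 10 genes that passed was 8 or 9 for shRRM2 against control, 7 between shRRM2/shp16 and shRRM2 and 9 between shRRM2/shp16 and control, in every one of the 17 alternatives. PLA2G4A accounts for the 9. Its value in shRRM2 against control ran from -0.52 to -0.067 over the fits that each leave out 1 library, and passed without shRRM2 replicate c and with limma. The PTGIS difference between shRRM2/shp16 and shRRM2 ran from -0.0094 to 0.069 over those fits and passed in none. No other sign changed among the 10 genes. With the replicate letters as a replicate block, 8, 7 and 9 genes passed, as without it, and no call of the 10 genes changed. Libraries with the same letter did not deviate together (correlations of -0.0198 to 0.0486 over 9 pairs, beside -0.0482 to 0.0358 for different letters), so the letters were taken as names only.

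The same alternatives were run for the other lists after the data were seen, and kept within 1.5 times the count given except for the other receptors and the leukotriene genes. Of the other receptors, 2 passed in each comparison. With no filter on low counts, 4 passed in each comparison with shRRM2/shp16, and with either limma fit 1 passed in shRRM2/shp16 against shRRM2. Leaving out 1 library gave 1 (without shRRM2/shp16 replicate b) to 3 in shRRM2/shp16 against control. Of the leukotriene genes, 5 passed in each comparison. In shRRM2/shp16 against shRRM2, DESeq2 called 3, leaving out 1 library gave 3 (without shRRM2/shp16 replicate a) to 6, and limma called 1. Limma, which tested 2 of them, called 1 for shRRM2 against control and 2 between shRRM2/shp16 and control. Depth limits HPGD and the genes under 1 CPM most.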
